A study of Mus musculus with 2 samples.

Results

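Fatty acid binding proteins are small cytosolic carriers of long-chain fatty acids, and 6 members of the family, Fabp1, Fabp2, Fabp3, Fabp4, Fabp5 and Fabp7, were followed here across the cells of a mouse liver tumour region. The members were chosen by gene symbol, not by level, out of 9 Fabp symbols among 31053 measured features. Fabp6 had no UMI in either library, Fabp9 had 1 and 0 in the inhibitor and control libraries, and Fabp12 had 2 and 1. Each library was a single-cell suspension of the hepatocellular carcinoma region of C57BL/6 mice that had been on the diet called CD-HFD for 15 months and were recorded as 17 months old. The inhibitor library came from mice given an inhibitor of the FABP5 protein from month 13 on, and the control library carries the treatment label control. The agent's name, the number of mice behind a library and what the control mice received were not given in the sources. The tissue was dissociated with collagenase, and an Annexin V kit served to enrich viable cells ahead of droplet capture, in which each mRNA molecule receives a unique molecular identifier (UMI).

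Members of this family bind a fatty acid inside a barrel-shaped pocket and hand it to membranes, enzymes or nuclear receptors. FABP1 is the abundant carrier of hepatocytes, FABP2 that of enterocytes and FABP3 that of heart and skeletal muscle. FABP4 is known from adipocytes, capillary endothelium and macrophages, FABP5 from epidermis and macrophages, and FABP7 from the developing brain and glia. The cell-type pattern of the other members bears on the study because its inhibitor is aimed at FABP5, and a cell can hold more than one carrier.

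The genes lie on 4 chromosomes. Fabp5 (chr3:10012548-10016607, + strand) and Fabp4 (chr3:10204088-10208576, - strand) are neighbours in a stretch of 5 family genes that spans 289 kb in GRCm38, whereas Fabp1, Fabp2, Fabp3 and Fabp7 lie elsewhere. The RefSeq promoter table held 4 of the 6 members. The windows of Fabp1 (chr6:71199629-71199928), Fabp2 (chr3:122894822-122895121) and Fabp7 (chr10:57784673-57784972) are shown. More of the UMIs of each of these genes came from 1 cell class than from all other classes in at least 1 library. Fabp3 met this too, with 43 of its 73 UMIs in kept control cells coming from macrophage-like cells, but its window is not shown. Each window runs 5′ to 3′ on the + strand of GRCm38.p6 from 250 bases before to 50 bases after the annotated start, with capitals on every match, on either strand, to 5 short motifs. The motifs were the TATA box TATAAA, the CCAAT box CCAAT, the nuclear receptor half-site AGGTCA, a half-site of the hepatocyte factor HNF1 spelled GTTAAT, and the core recognised by the myeloid factor PU.1 spelled GAGGAA.
Fabp1: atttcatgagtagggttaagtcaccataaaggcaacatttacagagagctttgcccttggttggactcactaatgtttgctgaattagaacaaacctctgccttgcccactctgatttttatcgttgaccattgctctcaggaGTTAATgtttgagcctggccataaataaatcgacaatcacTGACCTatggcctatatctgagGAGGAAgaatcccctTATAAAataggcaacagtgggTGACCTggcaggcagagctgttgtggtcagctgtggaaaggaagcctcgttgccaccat
Fabp2: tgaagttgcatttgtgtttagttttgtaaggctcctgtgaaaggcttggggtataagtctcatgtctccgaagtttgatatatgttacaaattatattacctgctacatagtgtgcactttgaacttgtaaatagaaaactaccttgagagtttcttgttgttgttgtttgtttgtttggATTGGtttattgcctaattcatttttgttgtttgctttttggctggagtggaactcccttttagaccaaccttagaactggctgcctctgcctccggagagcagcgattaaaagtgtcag
Fabp7: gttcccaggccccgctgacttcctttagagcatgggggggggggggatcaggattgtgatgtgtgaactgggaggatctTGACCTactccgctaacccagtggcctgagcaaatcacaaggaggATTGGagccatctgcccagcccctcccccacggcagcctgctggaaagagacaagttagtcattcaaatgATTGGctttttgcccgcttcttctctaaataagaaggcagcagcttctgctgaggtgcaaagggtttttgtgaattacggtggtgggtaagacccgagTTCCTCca
Positions count from the annotated start to the first letter of the match on the + strand, and no matches overlapped in these windows. The Fabp1 window held the TATA box at -30, the nuclear receptor half-site on the - strand at -67 and -9, the HNF1 half-site at -107 and the PU.1 core at -45. The Fabp2 window held only the CCAAT box, on the - strand at -70, and the Fabp3 window held none of the 5 motifs. The Fabp7 window held the CCAAT box on the - strand at -126 and -56, the nuclear receptor half-site on the - strand at -171 and the PU.1 core on the - strand at 43. Of 32851 mouse promoter windows of the same length, 13.6% held the TATA box, 37.4% the CCAAT box, 16.3% the nuclear receptor half-site, 7.10% the HNF1 half-site and 28.3% the PU.1 core. These matches describe letters in a window, and nothing about binding was read from them.

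The inhibitor library held 10649 barcodes and 68074929 UMIs, against 9493 barcodes and 53378693 UMIs in the control library. After limits on genes, UMIs and mitochondrial share and after removal of likely doublets, 8753 inhibitor cells and 6461 control cells remained, with medians of 6278 and 3943 UMIs. The libraries shared 29 barcodes, 18 of them in kept cells. Clusters were formed without any Fabp gene, and each was given a class name ending in "-like" from marker genes. Levels are given as CPM, the counts of a gene scaled to a fixed total of UMIs per class. Their exact Poisson 95% intervals cover counting error only. With 1 library per treatment no difference between treatments could be tested, and every such difference below lacks a replicate check. Some classes came almost entirely from 1 library (136 and 2 hepatocyte-like cells, 3 and 278 cells of the epithelial cluster, 2 and 27 endothelial-like cells in the inhibitor and control libraries), so library and class cannot be told apart there. Hepatocyte secreted genes such as Alb made up 0.211% of all UMIs in the inhibitor library and 1.77% in the control library. The levels of every member in each class are shown in the plot of CPM by class.

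**Figure D1:**
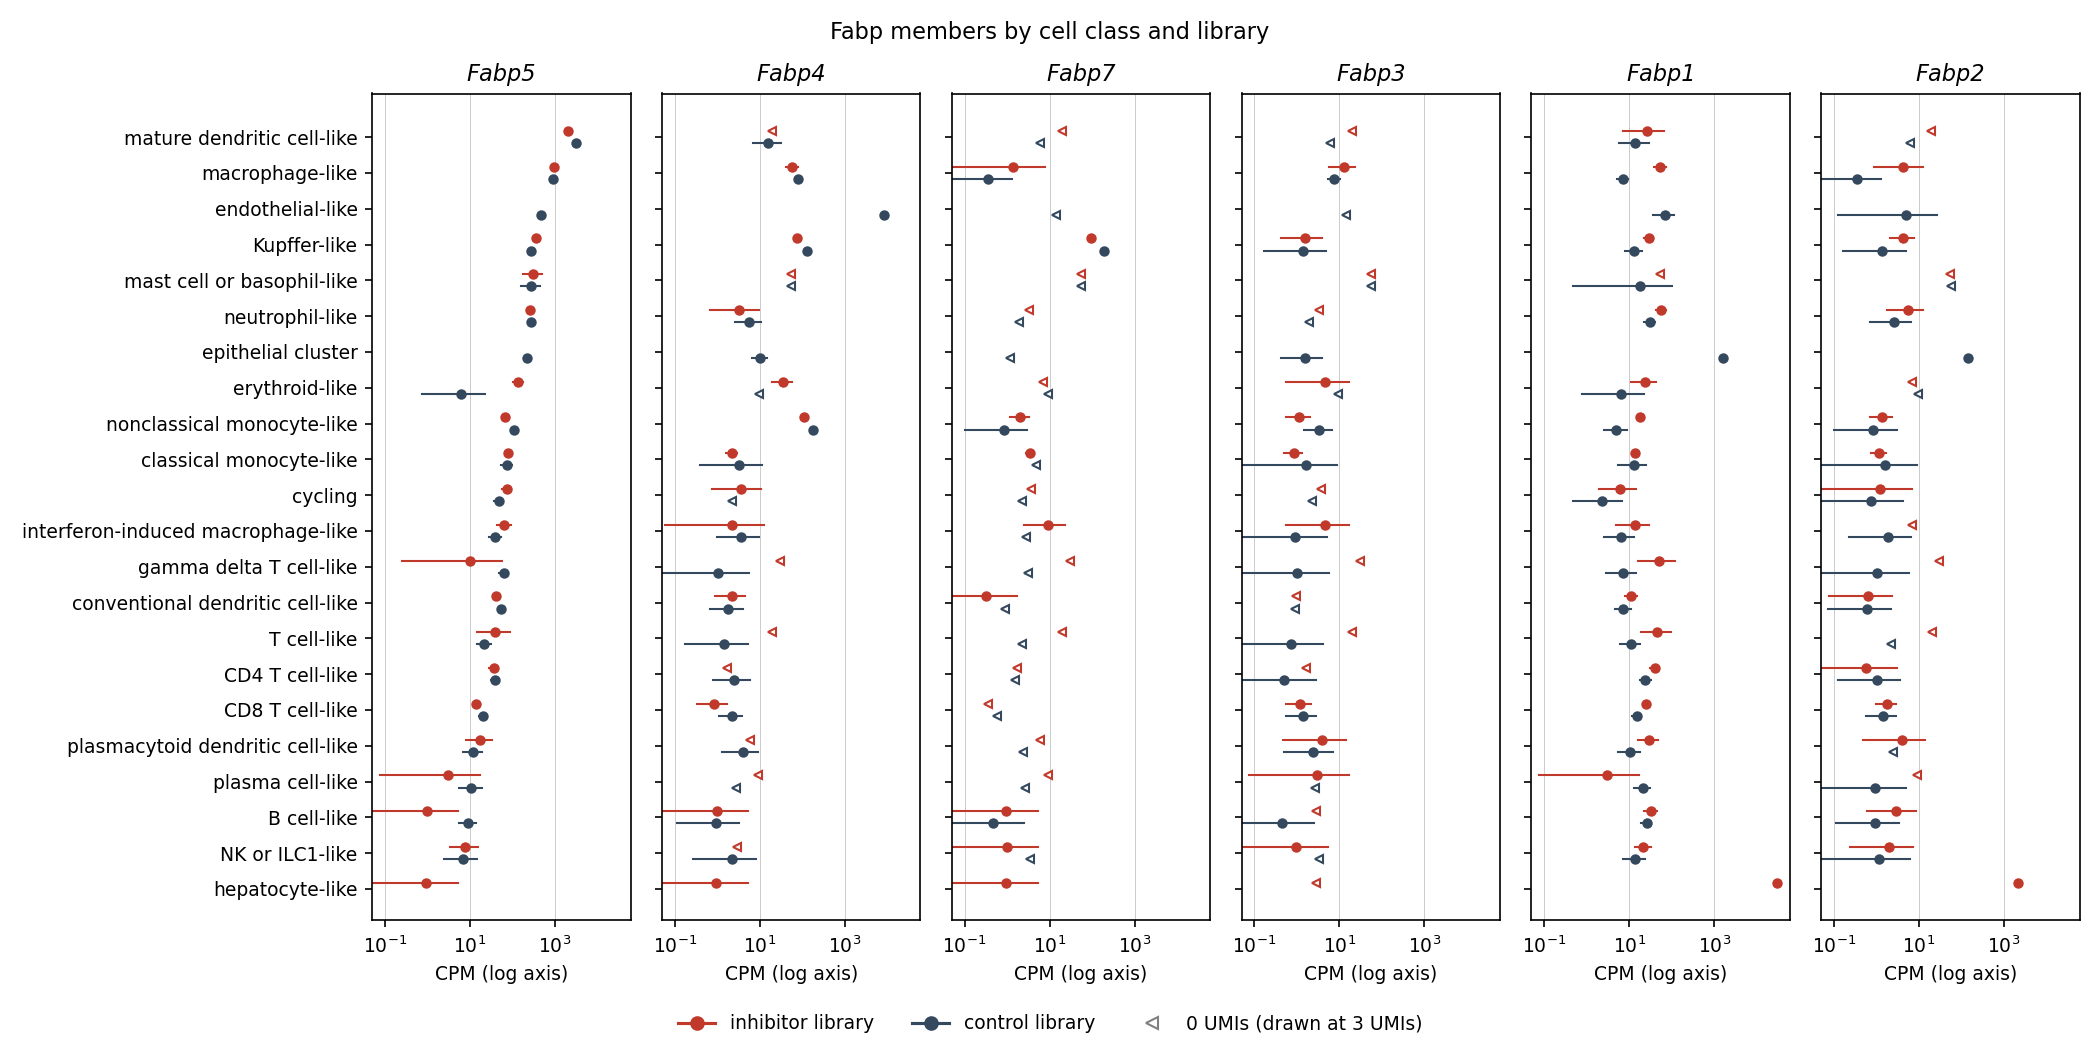
Level of each member in each cell class as CPM on a log axis, with exact Poisson 95% intervals; the inhibitor library is drawn above the control library, open triangles mark classes with 0 UMIs drawn at 3 UMIs, and classes under 10 cells in a library are not drawn. Fabp5 spans most myeloid classes, while Fabp4, Fabp7 and the pair Fabp1 and Fabp2 each stand high in few classes.

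Fabp5 was the member found in most cell classes, and by summed UMIs its highest levels were in mature dendritic cell-like and macrophage-like cells. Mature dendritic cells have taken up antigen and migrate to lymph nodes, and in this class Fabp5 reached 1967 CPM (1753 to 2201) in 12 inhibitor cells and 3154 CPM (3001 to 3313) in 63 control cells. Macrophage-like cells, marked by Gpnmb, Ms4a7 and the complement genes C1qa, C1qb and C1qc, held 946 CPM (876 to 1019) and 909 CPM (884 to 934). In both libraries these intervals did not overlap those of any other class with at least 10 cells, but they do not cover the spread between cells. Without the 5 cells with most Fabp5 in each class, macrophage-like cells held 238 CPM in the inhibitor and 678 CPM in the control library. Neutrophil-like cells then held 232 and 226 CPM, so the macrophage-like rank in the inhibitor library rests on few cells. At clustering resolution 0.5 the control mature dendritic cell-like value was 439 CPM, and without the 5% of cells with most Fabp5 the macrophage-like values were 340 and 209 CPM. Kupffer-like cells, the class with markers of resident liver macrophages, held 354 CPM and 275 CPM. In the inhibitor library 716 of their Fabp5 UMIs came from 41 cells with no UMI of the Kupffer genes Clec4f and Vsig4, and cells with a Clec4f UMI held 47.3 CPM in the inhibitor and 256 CPM in the control library. Neutrophil-like cells held 256 CPM and 271 CPM. In the control library the Kupffer-like interval (249 to 303 CPM) and the neutrophil-like interval (246 to 298 CPM) overlapped, so their order is not separated, and mast cell or basophil-like cells (154 to 454 CPM) overlapped both. Endothelial-like cells held 478 CPM (389 to 582) in the control library.

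Monocyte-like classes held less Fabp5. Classical monocyte-like cells were at 80.3 CPM in the inhibitor library and 73.3 CPM in the control library, and nonclassical monocyte-like cells at 66.4 CPM and 106 CPM. Subtracting free RNA, estimated from the profile of all barcodes and scaled by hepatocyte secreted genes, left 10.3 CPM in inhibitor classical monocyte-like cells. In nonclassical monocyte-like cells it left 19.7 CPM in the inhibitor and 86.3 CPM in the control library. The scaling genes include Hp, which had 48105 UMIs in kept inhibitor cells beside 4298 of Alb. Hp was highest in interferon-induced macrophage-like cells of that library, at 1615 CPM. The amount subtracted from myeloid cells therefore does not measure hepatocyte RNA alone. CD8 T cell-like cells held Fabp5 at 13.8 and 20.2 CPM, NK or ILC1-like cells at 7.78 and 6.76 CPM and B cell-like cells at 0.958 and 9.15 CPM. The hepatocyte-like cells of the inhibitor library yielded a single Fabp5 UMI among 136 cells. Without that subtraction, 36.1% of Fabp5 UMIs in the inhibitor library came from classical monocyte-like cells, 18.2% from Kupffer-like and 13.4% from macrophage-like cells. In the control library 56.3% came from macrophage-like cells and 17.3% from mature dendritic cell-like cells.

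Within a class Fabp5 was spread very unevenly over cells. In the macrophage-like class the 5 cells with most Fabp5 held 77.1% of its UMIs in the inhibitor library (80 cells, up to 138 UMIs in 1 cell) and 26.9% in the control library (664 cells, up to 315 UMIs in 1 cell). After each cell was thinned to 1000 UMIs, a Fabp5 UMI was found in 31.1% (20.8 to 42.9) of inhibitor and 15.2% (12.5 to 18.2) of control macrophage-like cells. Neutrophil-like cells were more even, with 19.6% and 17.7% of thinned cells positive, 10.6% and 17.0% of the UMIs in the top 5 cells, and at most 6 and 27 UMIs in a cell. Before thinning, 27.97% of inhibitor and 30.3% of control neutrophil-like cells had a Fabp5 UMI, although these cells were shallow, with medians of 1637 and 1940 UMIs. B cell-like cells, taken as a class that should lack the gene, had a Fabp5 UMI in 0.289% and 3.32% of cells at medians of 2673.5 and 3138 UMIs, and in 0% and 1.02% after thinning. The shares in macrophage-like and neutrophil-like cells therefore lay well above this level. In the control library 73.9% of the Fabp5 UMIs of 81 classical monocyte-like cells sat in 5 cells, against 5.01% among 2784 such cells of the inhibitor library.

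Fabp4 was highest in endothelial-like cells and, among leukocyte classes by summed UMIs, in nonclassical monocyte-like cells. As a mean over cells the control order of the leukocyte classes turned, with 358 CPM in Kupffer-like and 226 CPM in nonclassical monocyte-like cells. All 27 endothelial-like cells of the control library had Fabp4 UMIs, at 8230 CPM (7844 to 8630), and they held 59.8% of that library's Fabp4 UMIs. The 2 endothelial-like cells of the inhibitor library had 27 Fabp4 UMIs between them. Nonclassical monocytes patrol vessel walls, and the class named for them held Fabp4 at 109 CPM (103 to 116) in the inhibitor library and 177 CPM (160 to 194) in the control library, with 73.1% and 15.0% of the library's Fabp4 UMIs. Kupffer-like cells followed with 76.7 and 131.5 CPM and macrophage-like cells with 58.3 and 77.7 CPM, whereas classical monocyte-like cells held 2.19 and 3.19 CPM. Kupffer-like cells also carried RNA of the 7 endothelial markers, which summed to 223 CPM in inhibitor and 352 CPM in control Fabp4-positive cells and to 268 and 171 CPM in Fabp4-negative cells. Cdh5, one of these endothelial markers, was also on the list of Kupffer markers. Over the Kupffer-like class it stood at 135 CPM in the inhibitor and 70.5 CPM in the control library. Pecam1 stood at 60.6 and 56.3 CPM and Kdr at 1.91 and 6.78 CPM. The sum therefore does not measure endothelial RNA alone, and the part of endothelial RNA in the Kupffer-like Fabp4 was not tested.

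The nonclassical monocyte-like class joined a pair of clusters that differed in Fabp4 far more than in Fabp5. The cluster with high Ace, Treml4 and Spn, genes of mature nonclassical monocytes, held Fabp4 at 494 CPM in 295 inhibitor cells and 664 CPM in 97 control cells. The other cluster still carried the classical monocyte genes Ly6c2 and Ccr2, and there Fabp4 was at 10.3 CPM in 930 cells and 29.1 CPM in 262 cells. Fabp5 was at 87.3 and 98.2 CPM in the cluster with high Ace and at 61.0 and 108 CPM in the other. Fabp4-bearing cells of the class showed no adipocyte RNA, since Adipoq, Plin1, Lep, Cidec and Adrb3 were all at 0 in both libraries. Endothelial markers summed to 21.7 CPM in Fabp4-positive and 5.90 CPM in Fabp4-negative nonclassical monocyte-like cells of the inhibitor library. In those of the control library the sums were 23.2 and 10.8 CPM. Stab2, Clec4g and Egfl7 were at 0 among positive cells of both libraries, as were Cdh5 and Eng in the inhibitor and Kdr in the control library. Pecam1, another of these markers, stood at 21.4 CPM in inhibitor and 28.6 CPM in control cells of the cluster with high Ace. In the other cluster it stood at 1.55 and 1.62 CPM. The part of endothelial RNA in these sums was not tested.

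Fabp7 marked Kupffer-like cells. Its level there was 94.97 CPM (83.5 to 108) in the inhibitor library and 188 CPM (166 to 211) in the control library, with a UMI in 29.3% and 25.5% of cells. These cells held 70.1% and 98.2% of each library's Fabp7 UMIs. Classical monocyte-like cells had 79 Fabp7 UMIs over 2784 inhibitor cells, or 3.46 CPM, and none over 81 control cells, in which a count of 0 allows up to 4.78 CPM. The glial genes Sox10, S100b and Gfap were at 0 in Fabp7-positive Kupffer-like cells of both libraries. Fabp3 was rare, with 65 UMIs in the inhibitor and 79 in the control library over all barcodes. Macrophage-like cells held it at 12.5 CPM (9 UMIs) and 7.56 CPM (43 UMIs). The muscle genes Myh6, Ckm, Myl1, Actc1 and Tnnt2 were at 0 in the Fabp3-positive cells.

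Fabp1 and Fabp2 belonged to hepatocyte-like cells. In the 136 hepatocyte-like cells of the inhibitor library, which carried the pericentral genes Glul at 7118 CPM and Oat at 11993 CPM, Fabp1 was at 30599 CPM and Fabp2 at 2156 CPM. A Fabp1 UMI was found in 99.3% and a Fabp2 UMI in 90.4% of these cells. The enterocyte genes Vil1, Sis, Lct, Alpi and Cdh17 were all at 0. The Fabp1 UMIs of this class were 96.5% of those in the kept cells of the inhibitor library. In the control library 89.6% of Fabp1 UMIs and 91.5% of Fabp2 UMIs came from the epithelial cluster, where they stood at 1610 and 143 CPM. In 4 other clusterings, which moved a set of Fabp1-rich cells out of this cluster, its Fabp1 level was 6.67 to 198 CPM.

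Leukocyte classes carried Fabp1 at low levels, 19.6 CPM in the inhibitor and 12.7 CPM in the control library when pooled. The libraries differed in Fabp1 relative to the albumin gene Alb. Leukocyte classes held 93.7 Fabp1 UMIs per 100 Alb UMIs in the inhibitor library (38.5 to 279 over 14 classes) and 2.45 in the control library (0.802 to 27.1 over 17 classes). Over all barcodes of a library the ratio was 297 and 2.18. In hepatocyte-like cells of the inhibitor library it was 1359, and in the epithelial cluster of the control library 10.7. The ratio was thus higher in the inhibitor library both in leukocyte classes and over all barcodes. Whether free RNA carries these Fabp1 UMIs was not tested.

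**Figure D2:**
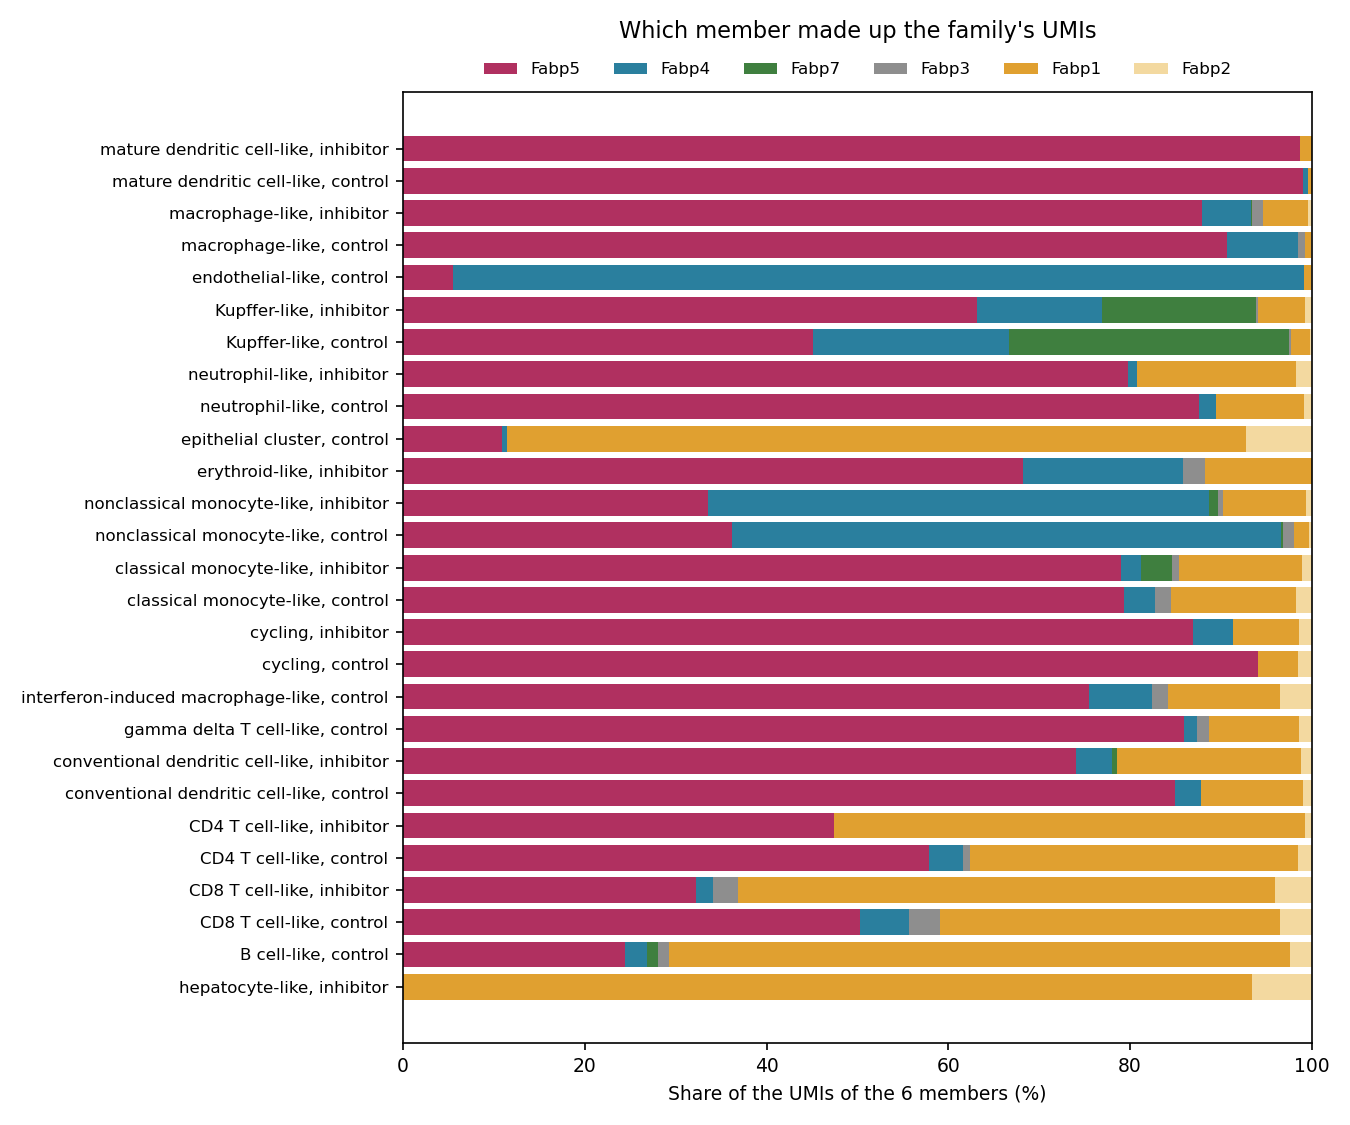
Share of each member among the UMIs of the 6 members, for each class and library with at least 50 such UMIs, the inhibitor library above the control library. Fabp5 leads in dendritic, macrophage and neutrophil classes, Fabp4 in endothelial and nonclassical monocyte classes, and Fabp1 in hepatocyte-like cells, the epithelial cluster, inhibitor CD8 and CD4 T cell-like cells and control B cell-like cells.

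Beside Fabp5, the other members made up unlike parts of the family's UMIs in different classes, as the plot of family shares shows. Counts of different genes are compared here only as UMIs of a 3′ assay, in which transcript length is not scaled. Fabp5 made up 98.7% of family UMIs in inhibitor and 99.1% in control mature dendritic cell-like cells, 87.9% and 90.7% in macrophage-like cells and 79.7% and 87.6% in neutrophil-like cells. In Kupffer-like cells it made up 63.2% and 45.1%, with Fabp4 at 13.7% and 21.6% and Fabp7 at 17.0% and 30.8%. Taken whole, this was the class in which 3 members each reached over 10% of the family's UMIs in both libraries. Its sub-clusters, described below, differed. The Clec4f-led cells held 87 Fabp7, 5 Fabp5 and 1 Fabp4 UMIs in the inhibitor and 215, 28 and 15 in the control library. The Ccl8-led cells, in which the Kupffer name rests on few markers, held 1, 716 and 84 and, in the control library, 14, 186 and 118. Taken whole, the nonclassical monocyte-like class had 165 Fabp4 UMIs per 100 Fabp5 UMIs in the inhibitor and 167 in the control library. Each gene's CPM there was lower in the inhibitor library. Neither cluster of the class held this proportion. The cluster with high Ace had 900 Fabp4 and 159 Fabp5 UMIs in the inhibitor and 372 and 55 in the control library. The other cluster had 73 and 432 in the inhibitor and 54 and 200 in the control library. In control endothelial-like cells Fabp4 made up 93.7% and Fabp5 5.45%. Fabp1, at the low levels given for leukocytes, was the leading member in inhibitor CD8 T cell-like cells (59.0%), inhibitor CD4 T cell-like cells (51.8%) and control B cell-like cells (68.3%).

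Detection of more than 1 member in a cell was most frequent in hepatocyte-like cells, of which 90.4% held at least 2 members in the inhibitor library, followed by control endothelial-like cells with 74.1%. At least 2 members were detected in 36.9% of inhibitor and 26.1% of control Kupffer-like cells. In the epithelial cluster of the control library the share was 32.7%. It was 25% and 12.7% in 12 and 63 mature dendritic cell-like cells. The shares were 13.8% and 10.2% in macrophage-like cells and 11.4% and 12.3% in nonclassical monocyte-like cells. They were 2.74% and 1.77% in neutrophil-like and 0.660% and 0.797% in CD8 T cell-like cells. No class had a cell with more than 4 members. These shares depend on UMIs per cell, and after thinning to 1000 UMIs the Kupffer-like shares were 3.24% and 6.80%.

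In macrophage-like cells of the control library Fabp5 accompanied Fabp4. After thinning, 17 of 24 Fabp4-positive cells had a Fabp5 UMI (70.8%, exact binomial interval 48.9 to 87.4), against 81 of 620 Fabp4-negative cells (13.1%, 10.5 to 16.0), at medians of 9832.5 and 8536.5 UMIs before thinning. Unthinned, the shares were 78.2% and 27.6%. The 55 Fabp4-positive cells held 4 UMIs of the 7 endothelial markers, of which 5 were at 0. Kupffer-like cells showed the same direction without thinning, with Fabp5 in 74.4% (57.9 to 87.0) of Fabp4-positive and 29.6% (22.6 to 37.3) of Fabp4-negative inhibitor cells, and in 60.5% (43.4 to 76.0) and 32.5% (24.4 to 41.6) of control cells. Fabp4-positive cells were the deeper ones, with medians of 16820 and 12767 UMIs in the inhibitor and 10499.5 and 7690 UMIs in the control library. Thinned to 2000 UMIs, Fabp5 was found in 7 of 14 Fabp4-positive and 33 of 160 Fabp4-negative inhibitor cells, with overlapping intervals. For Fabp7 and Fabp5 in Kupffer-like cells the intervals overlapped in both libraries. Fabp7 was found in 26.3% (16.9 to 37.7) of Fabp5-positive and 31.1% (23.1 to 40.2) of Fabp5-negative inhibitor cells, and in 28.6% (17.9 to 41.3) and 23.5% (15.5 to 33.1) of control cells. In nonclassical monocyte-like cells the thinned Fabp5 shares of Fabp4-positive and Fabp4-negative cells overlapped, at 4.95% and 4.92% in the inhibitor and 11.9% and 6.84% in the control library.

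Kupffer-like cells were split further to see whether the 3 members lay in the same cells, as the plot of Kupffer-like sub-clusters shows. Both the sub-clusters and the split by Clec4f, a lectin gene of resident Kupffer cells, were added after the data were seen. A sub-cluster led by Clec4f held the most Fabp7, at 334 CPM in 19 inhibitor cells and 482 CPM in 34 control cells, beside Fabp5 at 19.2 and 62.8 CPM and Fabp4 at 3.84 and 33.6 CPM. In summed UMIs a sub-cluster led by the chemokine gene Ccl8, with 41 inhibitor and 16 control cells, was its reverse. It held Fabp5 at 1123 and 977 CPM, Fabp4 at 132 and 620 CPM and Fabp7 at 1.57 and 73.5 CPM. Few cells carried most of these UMIs. The top 5 cells held 64.5% and 90.9% of the Fabp5 UMIs and 90.5% and 97.5% of the Fabp4 UMIs. A Fabp4 UMI was found in 11 inhibitor and 8 control cells. Clec4f was at 0 and 15.8 CPM and Vsig4 at 0 and 394 CPM in that sub-cluster, so the Kupffer name rests on few of its markers there. Cells with a Clec4f UMI had Fabp7 at 300 CPM in the inhibitor and 517 CPM in the control library, against 60.2 and 81.6 CPM in cells without one. The 20 control cells led by Hist1h1b, with the proliferation gene Mki67 at 746 CPM, held no Fabp7 or Fabp4 UMI and 99.0 CPM of Fabp5. Clec4f, Vsig4, Timd4, Marco and Folr2 were at 0 in these cells and the monocyte gene Ccr2 was at 472 CPM, so their markers go against the Kupffer name.

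**Figure D3:**
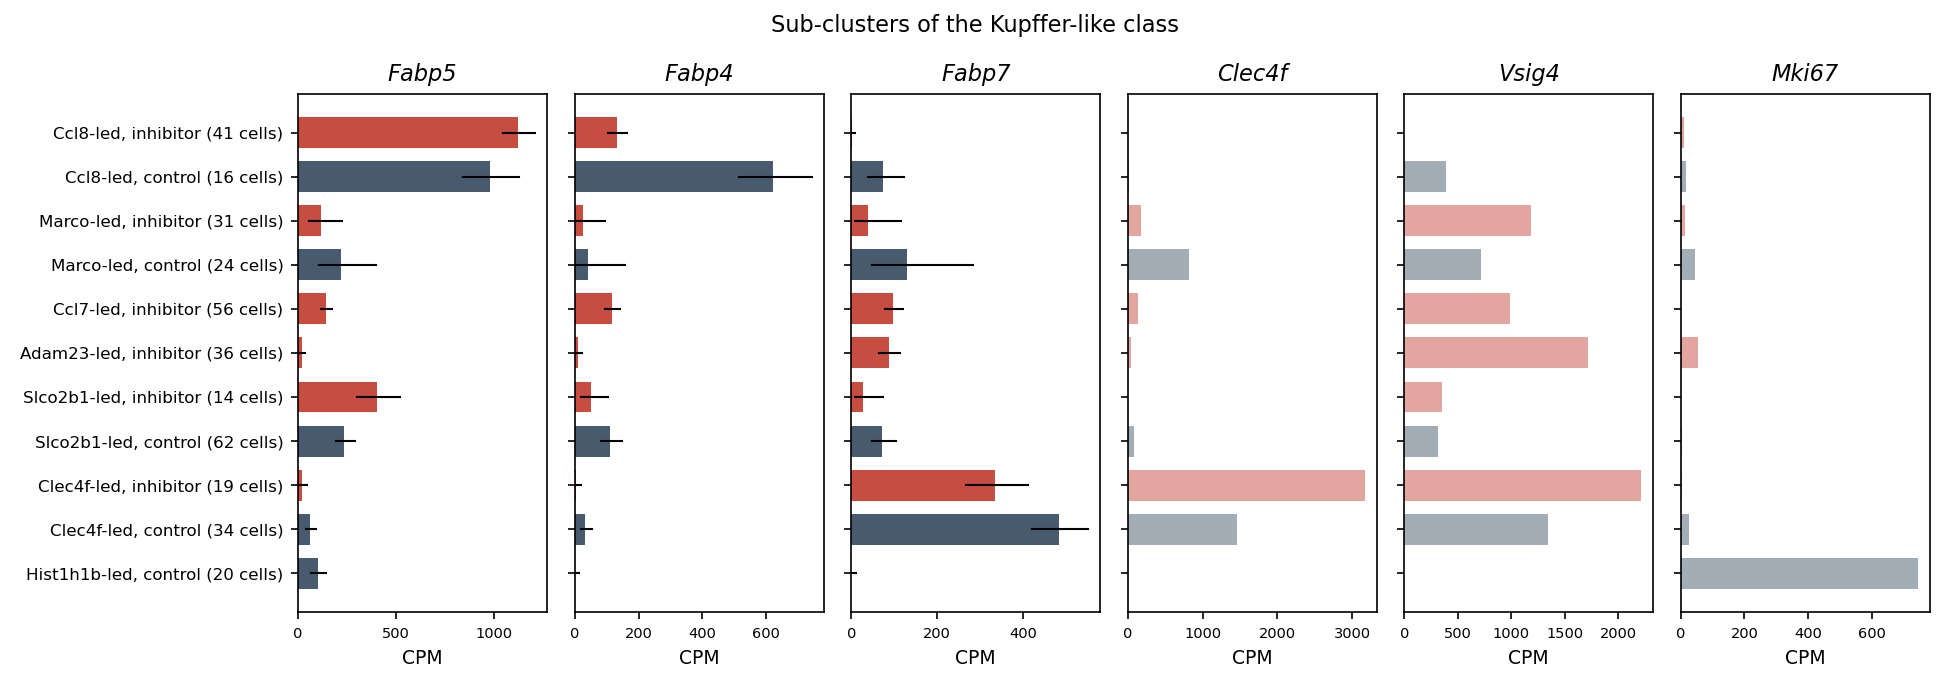
CPM of Fabp5, Fabp4 and Fabp7, with exact Poisson 95% intervals, and of the marker genes Clec4f, Vsig4 and Mki67 in sub-clusters of the Kupffer-like class with at least 10 cells in a library, inhibitor bars above control bars. Fabp7 is highest in the Clec4f-led cells, while Fabp5 is highest in the Ccl8-led cells.

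A set of control cells joined Fabp5 with Fabp1. The epithelial cluster, named cholangiocyte or tumour-like epithelial from genes such as Spp1 and Krt18 although the hepatocyte markers also met the naming rule, held 278 control cells and split into 7 sub-clusters, a step added after the data were seen. A sub-cluster of 50 cells led by Rgn, Pnpla7 and Agxt, metabolic genes of hepatocytes, had Fabp1 at 17864 CPM (17267 to 18476), Fabp2 at 1072 CPM and Fabp5 at 1906 CPM (1714 to 2113). It also carried Afp, a fetal liver gene used as a liver tumour marker, at 824 CPM, and it had no Epcam UMI. Fabp5 was found in 64.0% of these cells, and 5 of them held 51.2% of its UMIs. The cells were shallow, with a median of 1722 UMIs. Subtracting free RNA left no Fabp5 in the epithelial cluster, against 216 CPM before, in a step scaled by hepatocyte secreted genes, of which Alb alone stood at 12522 CPM in the Rgn-led cells. In 4 other settings that moved Rgn-led cells to another class, the Fabp5 level of the cluster was 21.7 to 49.8 CPM. Their Ptprc level was 5.28 CPM and their Lyz2 level 31.7 CPM, against 11671 CPM of Lyz2 in a sub-cluster that this gene led.

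Other sub-clusters of the epithelial cluster held less Fabp5. The 64 cells led by the glutathione transferase gene Gstm3 had Fabp1 at 984 CPM, Fabp2 at 335 CPM and Fabp5 at 17.3 CPM. The 69 cells led by Cxcl5, with the secreted protein gene Spp1 at 14148 CPM, had Fabp1 at 139 CPM and Fabp5 at 96.8 CPM. Over the whole cluster after thinning, a Fabp5 UMI was found in 26 of 65 Fabp1-positive cells (40.0%, 28.0 to 52.9) and 4 of 151 Fabp1-negative cells (2.65%, 0.726 to 6.64), whose medians were 3140 and 10178 UMIs. Among cells with no UMI of the leukocyte genes Ptprc, Cd3e and Lyz2 the shares were 42.0% and 3.45%. The Rgn-led cells of the control library and the hepatocyte-like cells of the inhibitor library, in which Rgn was likewise the leading gene, differed in Fabp5, with 361 UMIs in 50 cells and 1 UMI in 136 cells. Since nearly all cells of each set came from 1 library, treatment and cell state cannot be told apart in this difference. In 5 of 8 other clusterings most of the Rgn-led cells fell in a class named hepatocyte-like, and in the other 3 they stayed in the epithelial cluster.

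**Figure D4:**
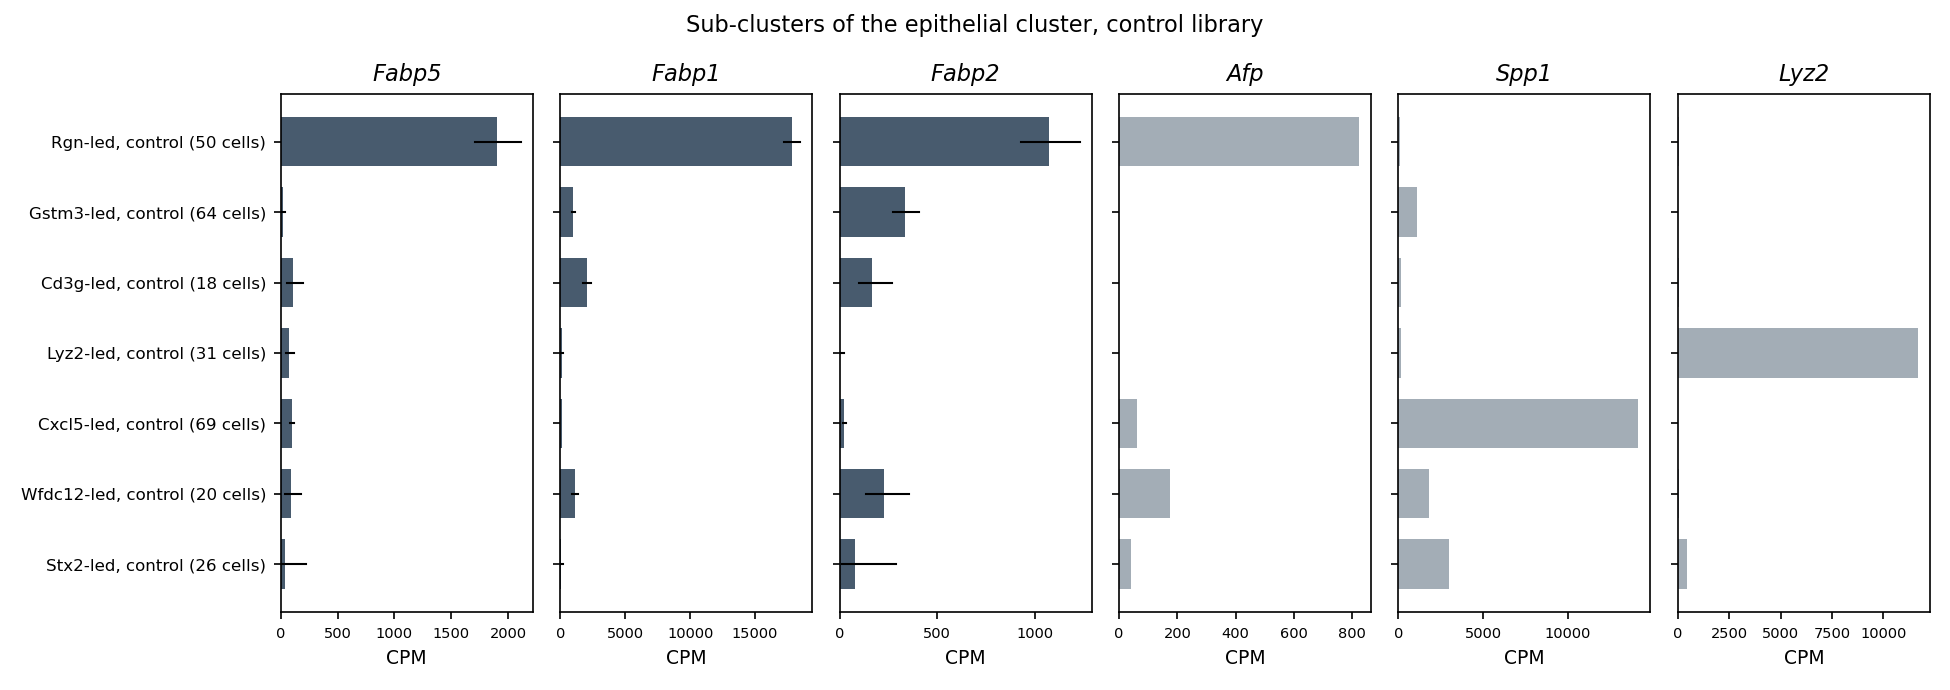
CPM of Fabp5, Fabp1 and Fabp2, with exact Poisson 95% intervals, and of Afp, Spp1 and Lyz2 in the 7 sub-clusters of the epithelial cluster in the control library. The 50 Rgn-led cells are highest in all 3 members and in Afp.

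Between the libraries, Fabp7 and Fabp4 were lower in the inhibitor library in Kupffer-like cells, and Fabp4 and Fabp5 were lower in nonclassical monocyte-like cells. These are values of whole classes, and the Kupffer-like class was made up differently in each library. Its Ccl7-led sub-cluster held 56 inhibitor and 5 control cells, its Adam23-led sub-cluster 36 inhibitor cells, its Slco2b1-led sub-cluster 14 inhibitor and 62 control cells and its Hist1h1b-led sub-cluster 1 inhibitor and 20 control cells. Its Ccl8-led sub-cluster, with 41 inhibitor and 16 control cells, held 84 of the 201 inhibitor and 118 of the 194 control Fabp4 UMIs. In the control library 5 cells held 97.5% of the Fabp4 UMIs of that sub-cluster. The part of these few cells and of this makeup in the class ratios was not tested. A member was counted as higher or lower at a difference of at least 1.5-fold among features with at least 20 UMIs in the class. In Kupffer-like cells 4 members had enough UMIs, of which Fabp4 and Fabp7 were lower (23.1% of 8925 features were) and Fabp1 was higher (11.2% were). In nonclassical monocyte-like cells 4 members had enough UMIs, of which Fabp4 and Fabp5 were lower (14% of 9615 features) and Fabp1 and Fabp7 higher (9.79%), Fabp7 with 18 and 2 UMIs. In neutrophil-like cells 2 members had enough UMIs, and Fabp1 alone was higher (5.32% of 5955 features) while neither was lower (25% of features). In macrophage-like cells, compared at a limit of 50 cells added after the data were seen, 4 members had enough UMIs, none was lower (15.3% of 9270 features) and Fabp1 and Fabp3 were higher (12.2%), Fabp3 on 9 and 43 UMIs. The macrophage-like calls depended on the setting, since the log2 ratio of Fabp5 there was -0.67 and that of Fabp4 -1.32 without the mitochondrial limit.

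The log2 ratio of Fabp7 in Kupffer-like cells, inhibitor over control, was -0.98 (exact binomial interval -1.24 to -0.73) and that of Fabp4 was -0.78 (-1.07 to -0.49). Fabp5 was at 0.36 (0.19 to 0.53) in these cells, under the 1.5-fold limit. The median over all measured features of the class was -0.09. The Fabp7 ratio was below 0 under all 13 other settings tried. The Fabp5 ratio changed sign with processing, to -0.50 without the mitochondrial limit, and was 0.029 when the 5% of cells with most Fabp5 were left out. In cells with a Clec4f UMI it was -2.43, at 47.3 CPM in 29 inhibitor and 256 CPM in 33 control cells. The Fabp4 ratio came to -0.081 with a stricter limit on genes per cell and to -2.45 as a mean over cells.

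In nonclassical monocyte-like cells the log2 ratio was -0.69 (-0.86 to -0.52) for Fabp4 and -0.67 (-0.88 to -0.45) for Fabp5, and the median over all measured features was -0.03. Its pair of clusters is given apart here. Within the cluster with high Ace the Fabp4 ratio was -0.43 (-0.60 to -0.25) and the Fabp5 ratio -0.17 (-0.62 to 0.30). Within the other cluster they were -1.50 (-2.03 to -0.96) and -0.82 (-1.07 to -0.57). The sign of the class value for Fabp4 turned at clustering resolutions 0.5 (0.12) and 2 (0.14), and that for Fabp5 turned when each library was clustered alone (0.029). In macrophage-like cells Fabp5 differed by 0.06 (-0.06 to 0.17) and Fabp4 by -0.41 (-0.91 to 0.04). Over the alternatives the macrophage-like ratio ran between -1.90, with each library clustered alone, and 0.70, without the 5% of cells with most UMIs of the gene, for Fabp5, and between -1.32 and 0.59 for Fabp4. The Fabp5 ratio was -1.51 without the 5 cells with most Fabp5 in each library and -0.78 at clustering resolution 0.5. In neutrophil-like cells Fabp5 differed by -0.08 (-0.32 to 0.15). The plot of ratios sets these values beside those from other settings. Fabp1, counted as higher in all 4 of these classes, moved there against the hepatocyte secreted genes, of which 15 of 16 measured were lower in Kupffer-like, 18 of 19 in nonclassical monocyte-like, 19 of 20 in neutrophil-like and 18 of 20 in macrophage-like cells. It was also higher in CD8 T, CD4 T, NK or ILC1, conventional dendritic and plasmacytoid dendritic cell-like cells, where 5.41% to 9.68% of features were. In B cell-like and classical monocyte-like cells it was measured and not called.

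**Figure D5:**
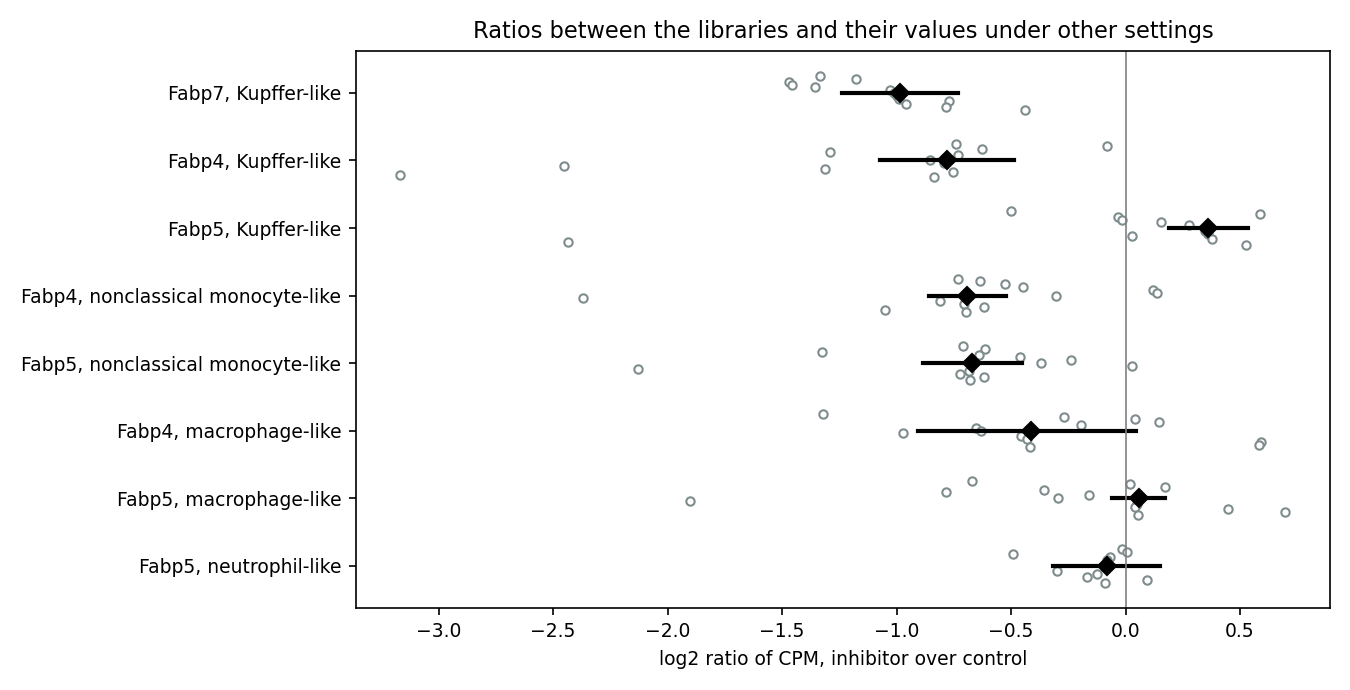
Log2 ratio of CPM, inhibitor over control, for 8 member and class pairs; black diamonds and bars give the value and its exact binomial 95% interval, which covers counting error only, and grey circles give the value under each other setting. Fabp7 in Kupffer-like cells stays below 0 in every setting drawn, while the Fabp5 values of Kupffer-like and macrophage-like cells fall on both sides of 0.

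The likeness of other genes to each member was described by Pearson's r of log2(CPM + 10) over 35 class and library profiles of at least 30 cells, which share libraries and depth. Endothelial-like cells and Fabp3 were too few in cells or UMIs to enter. Among the genes most like Fabp1 were Akr1c6 (r = 0.98), Gsta3, Plat and Acaa1b, and Fabp2 was most like Gstm2 (0.99), Agmat, Gstm6, Aox3 and Fmo1, all highest in hepatocyte-like cells. Fabp7 was most like Fcna (0.98), Clec4f, Kcna2, Pcolce2 and Ccl8, all highest in Kupffer-like cells. Each class enters with a single profile per library, so r compares whole classes and not cells within a class. Within Kupffer-like cells the Ccl8-led sub-cluster held Fabp7 at 1.57 CPM in the inhibitor and 73.5 CPM in the control library. The Clec4f-led sub-cluster held it at 334 and 482 CPM. Fabp4 was most like Adgre4 (0.91), Hgf, Cd300e, Ear2 and Treml4, and Fabp5, whose closest genes had the lowest r of the 5 members, most like Anxa3 (0.76), Specc1, Sgpl1, Slc6a6 and Lipa. Clec4f, Cd300e, Ear2 and Treml4 were among the markers that named the classes. With a pseudocount of 1 CPM in place of 10, the 5 closest genes shared 2 with these for Fabp1, Fabp4 and Fabp5, 3 for Fabp7 and 4 for Fabp2. Between members r was 0.96 for Fabp1 and Fabp2, 0.61 for Fabp4 and Fabp5, 0.52 for Fabp4 and Fabp7 and 0.28 for Fabp5 and Fabp7.

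Genes that act with these carriers were read from lists of the pathway in the same classes. Of fatty acid uptake and activation genes in Kupffer-like cells, 1 of 9 measured was higher in the inhibitor library and 2 were lower. The list's median log2 ratio was -0.38 beside -0.09 over all features. Over all features of the class 11.2% were higher and 23.1% lower, so the count of lower uptake genes was about the background share. The lipoprotein lipase gene Lpl was the higher one, at 2041 CPM in the inhibitor and 1137 CPM in the control library (log2 ratio 0.84), and the lower ones were the fatty acid translocase gene Cd36 (139 and 235 CPM, -0.76) and the acyl-CoA synthetase gene Acsl3 (11 and 18 UMIs). None of 8 measured genes of this list was called in nonclassical monocyte-like cells. Among fatty acid sensing nuclear receptors 1 of 7 measured in Kupffer-like cells was higher and 1 lower. Nr1h3, which codes for the oxysterol receptor LXR alpha, stood at 650 CPM in the inhibitor and 302 CPM in the control library (1.10), and Rxrb, a partner receptor, at 20.2 and 42.7 CPM (-1.08). Pparg, a receptor to which FABP4 and FABP5 are known to deliver ligands, was highest in Kupffer-like cells of both libraries, at 65.6 and 52.9 CPM.

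Lipid droplet coats and lipases had 3 of 7 measured genes lower in Kupffer-like cells, Lipe, G0s2 and Plin3, and none higher, with a median of -0.40, beside the same 23.1% lower over all features. Lipe and G0s2 rested on fewer than 20 UMIs in either library. Eicosanoid enzymes, which act on arachidonate and its products, had 2 lower and 1 higher of 8 measured in Kupffer-like cells, about the background shares. The leukotriene genes Alox5ap (59.9 and 157 CPM, -1.39) and Ltc4s (14.1 and 90.2 CPM, -2.68) were the lower ones, and the cyclooxygenase gene Ptgs2 (21 and 3 UMIs) the higher one. In nonclassical monocyte-like cells 2 of 9 measured eicosanoid genes were higher and 2 lower, beside 9.79% and 14% of all features. No endocannabinoid gene was called in Kupffer-like, nonclassical monocyte-like, macrophage-like or neutrophil-like cells, and no other intracellular lipid binding protein of the list reached 20 UMIs there.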

How the data were processed

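The 2 deposited matrices hold UMI counts per gene and barcode; Cell Ranger 5.0.1 made them, per the file headers. The submitters' processing notes name Cell Ranger, R 3.0, Seurat 3 and mm9, but gene positions here are from GRCm38, and the build behind the counts was not settled. The number of mice per library, the control treatment and the Annexin V fraction kept are not stated. The members and all gene lists were chosen with earlier results of these data known.

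Barcodes with at least 300 genes, at least 500 UMIs and at most 25% mitochondrial UMIs were kept. Likely doublets (717 inhibitor and 374 control barcodes) were removed by a neighbour score against 2 simulated doublets per cell, at 0.8% per 1000 barcodes. Counts were scaled to 10000 per cell and clustered in scanpy 1.11.5 with igraph 0.11.9 (2000 variable genes without any Fabp gene, 30 components, 20 neighbours, resolution 1). The 27 clusters received 22 class names where at least 3 markers were 2-fold higher than in all other cells. Thinned shares use 1000 UMIs per cell and leave out shallower cells. A count of 0 allows up to 3 UMIs. Intervals are exact 95% intervals (Poisson, Clopper-Pearson or conditional binomial, scipy 1.17.1) and cover counting error only. The text names the 6 members, the 5 genes most like each, and list genes that differed by at least 1.5-fold in classes with at least 100 cells per library, a limit lowered to 50 after the data were seen. A few genes that these rules or the marker lists hold are not reported here. Python 3.11.15, numpy 2.4.6, pandas 2.3.3 and scikit-learn 1.9.0 were used. Thinning and the intervals of the ratios were checked on simulated data, and doublet scoring and likeness were not. The simulated class sums followed the Poisson model behind the intervals and held no uneven spread over cells. That check therefore cannot show how the intervals fare where few cells hold most UMIs. With 1 library per treatment no test was made. Alternatives were other filters, doublet numbers, clusterings, free RNA subtraction, means over cells and removal of the highest cells.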

Additional observations from a re-analysis of the deposited data

Results flagged for a closer look

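The difference of Fabp5 between the libraries ran one way in the Kupffer-like class taken whole and the opposite way in 4 other classes. Each counting interval lay on its own side of 0. The Ccl8-led sub-cluster, with Clec4f and Vsig4 at 0 in the inhibitor library, held 716 of the 927 inhibitor and 186 of the 406 control Kupffer-like Fabp5 UMIs. Kupffer-like cells with a Clec4f UMI held 47.3 CPM in the inhibitor and 256 CPM in the control library. Those without one held 406 and 282 CPM. The log2 ratio of Kupffer-like cells exceeded that of nonclassical monocyte-like cells by 1.03, that of CD8 T cell-like cells by 0.90, that of conventional dendritic cell-like cells by 0.78 and that of B cell-like cells by 3.62. In B cell-like cells the ratio rests on 1 UMI in the inhibitor library and 20 UMIs in the control library. With 1 library per treatment these differences between classes were not tested, and the Kupffer-like value changes sign under several other settings.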

How the results depend on the processing

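The Fabp7 ratio of Kupffer-like cells (-0.98) was below 0 under all 13 alternatives, and moved to -1.33 without a mitochondrial limit, -1.47 with no doublets removed, -1.46 with 2 times as many doublets removed, -1.35 at resolution 2 and -0.44 in cells without a Clec4f UMI. The Fabp5 ratio of Kupffer-like cells (0.36) turned to -0.50, -0.033 and -0.015 under the first 3 of these and to -2.43 in cells with a Clec4f UMI, and was 0.59 with a stricter gene limit, 0.16 at resolution 2 and 0.029 without the 5% of cells with most UMIs of the gene. The Fabp4 ratio of Kupffer-like cells (-0.78) was -0.081 with the stricter gene limit, -1.29 with more doublets removed, -2.45 as a mean over cells, -1.31 without the top 5% and -3.17 in cells with a Clec4f UMI. In nonclassical monocyte-like cells the Fabp4 ratio (-0.69) turned to 0.12 and 0.14 at resolutions 0.5 and 2, and was -0.45 with more doublets removed, -0.31 with Fabp genes in the clustering, -2.37 with each library clustered alone and -1.05 without the top 5%. The Fabp5 ratio there (-0.67) turned to 0.029 with each library clustered alone, and was -1.32 with no doublets removed, -0.24 at resolution 2, -0.37 with Fabp genes in the clustering and -2.13 with free RNA subtracted. That subtraction was scaled by genes that include Hp, which was highest in interferon-induced macrophage-like cells of the inhibitor library. The causes were not tested. No Kupffer-like ratio was had at resolution 0.5 or with each library clustered alone. Of 202 class levels under alternatives, 117 moved beyond their counting interval. The shares of Fabp5 among Fabp4-positive macrophage-like and Fabp1-positive epithelial cells were 78.2% to 80.6% and 42.0% to 46.8% at other thinning depths or without cells holding leukocyte genes, and were not recomputed under other filters or clusterings. No paired analysis was possible because each treatment has 1 library. Depth limits Fabp3, Fabp7 outside Kupffer-like cells and all members in classes under 30 cells.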
